A study of Mus musculus with 11 samples.

Results

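The 37 genes described here belong to the ATF4 amino acid response and the tRNA synthetases that are induced with it. They were taken by name from a table of 23224 mouse genes measured in 11 organoid libraries, and all 37 passed the filter on low counts that left 13720 genes for testing. They comprise 2 eIF2alpha kinases, 7 transcription factors and regulators, 4 stress effectors, 9 enzymes of amino acid and one-carbon metabolism, 7 amino acid transporters and 8 cytosolic tRNA synthetases. Every library came from mouse colon cancer organoids, cell cultures grown as small epithelial structures, and all carried the genotype given as AKP. RAG2KO organoids (3 libraries) were regrown from primary tumours that naive AKP organoids formed in the colon of RAG2KO mice, which make no mature T or B cells but keep myeloid and natural killer cells. C57Bl6 organoids (3 libraries) were regrown in the same way from tumours in C57Bl6 mice, which are immunocompetent. The constitutive and the inducible SOX17OE lines (1 library each) were naive organoids given a SOX17 construct by lentivirus, and naive organoids (3 libraries) were not transplanted. The inducible construct responds to doxycycline, but the sources used here do not say whether the drug was given, and no empty-vector line was analysed here. Tumour cultures were passaged until they held cancer cells alone, so the libraries describe organoids in culture and not the tumour in the mouse. Neither the ages of the mice nor whether replicates came from separate mice or cultures is stated, so the p-values measure only the spread between these samples.

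ATF4 is a transcription factor whose translation rises when eIF2alpha is phosphorylated by one of several kinases, among them GCN2, which senses uncharged tRNA, and PERK, which senses misfolded protein in the endoplasmic reticulum. It then raises transcription of genes that make, import and charge amino acids, together with the feedback regulators Trib3 and Ddit3. Since ATF4 is controlled largely in translation, its mRNA level need not follow the activity of the protein. In bulk RNA, fewer cells expressing a gene and less RNA of that gene per cell cannot be told apart.

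Promoter windows of these genes are shown because the family is commonly defined by a composite C/EBP-ATF element near the start of transcription. RefSeq windows (assembly GRCm38.p6, 250 bases before to 50 after the gene start) were found for 32 of the 37 genes, but not for Cth, Slc7a5, Slc1a5, Wars and Nars. The letters TGATGNAA, searched on both strands, occurred in a window of 12 of these 32 genes (37.5%), against 1219 of 27025 mouse genes with a window (4.51%). By role, they occurred in 4 of 6 synthetases, 2 of 8 enzymes, 2 of 5 transporters, 2 of 4 stress effectors, 2 of 7 regulators and neither kinase. The whole window of Asns and stretches of 40 bases from 7 other genes are printed on the strand of the gene, with the match in capitals (TTNCATCA is the same motif read on the opposite strand). Slc7a11 and Aars each hold 2 matches. Those of Slc7a11 lie close together and are both printed, while of Aars the one before the gene start is printed and not the one after it, and a match is a description of the letters, not of binding.
Asns (chr6:7693160-7693459, minus strand): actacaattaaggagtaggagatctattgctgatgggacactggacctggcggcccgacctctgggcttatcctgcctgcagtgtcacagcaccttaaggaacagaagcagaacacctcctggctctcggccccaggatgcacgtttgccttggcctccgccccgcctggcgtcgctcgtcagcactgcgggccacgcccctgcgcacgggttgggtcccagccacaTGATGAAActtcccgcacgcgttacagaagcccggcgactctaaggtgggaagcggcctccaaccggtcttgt
Trib3 (chr2:152344023-152344062, minus strand): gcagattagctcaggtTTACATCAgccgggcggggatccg
Nupr1 (chr7:126625557-126625596, minus strand): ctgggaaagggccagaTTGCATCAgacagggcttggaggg
Chac1 (chr2:119351033-119351072, plus strand): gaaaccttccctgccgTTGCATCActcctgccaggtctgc
Slc7a11, first match (chr3:50443656-50443695, minus strand): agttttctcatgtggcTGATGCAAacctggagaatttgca
Slc7a11, second match (chr3:50443637-50443676, minus strand): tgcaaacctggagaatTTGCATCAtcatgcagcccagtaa
Aars (chr8:111033714-111033753, plus strand): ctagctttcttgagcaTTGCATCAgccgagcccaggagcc
Tars (chr15:11399650-11399689, minus strand): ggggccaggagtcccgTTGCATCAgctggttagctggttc
Iars (chr13:49682121-49682160, plus strand): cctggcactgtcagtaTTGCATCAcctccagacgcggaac

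Libraries held 14109182 to 22154456 expected counts. The share taken by Rn45s, a ribosomal RNA precursor, was 6.56 to 8.54% in RAG2KO organoids, 2.21 to 3.77% in C57Bl6 organoids, 6.39% in the constitutive SOX17OE line (95% Wilson interval 6.38 to 6.41%, counting error only), 3.71% in the inducible line (3.70 to 3.72%) and 2.42 to 4.99% in naive organoids. The RAG2KO libraries and the constitutive line thus had the highest ribosomal shares, and fits that include this share are given beside each comparison. Sox17 was at 15.4 to 24.4 CPM in RAG2KO organoids, 12.4 to 74.3 CPM in C57Bl6 organoids, 72.7 CPM in the constitutive line, 4.78 CPM in the inducible line and 0.0438 to 0.214 CPM in naive organoids (CPM is the usual depth-scaled count, here with TMM-scaled library sizes). Epithelial markers summed to 9340 to 10100 CPM in RAG2KO organoids, 8580 to 10700 CPM in C57Bl6 organoids and 9260 to 11000 CPM in naive organoids. The sum was lower in the SOX17OE lines, at 6350 CPM in the constitutive and 8030 CPM in the inducible line. The sums hide changes of single markers. Against naive organoids, 3 of 7 epithelial markers were lower in RAG2KO organoids (edgeR, adjusted p under 0.05), beside 13.3% of all tested genes. In C57Bl6 organoids 3 were lower and 1 higher, beside 5.85% and 9.5% of all tested genes. In the lines 4 were lower, beside 5.92%. Of the markers of other cell types, 4 of 9 fibroblast, 4 of 13 immune and 1 of 5 endothelial genes reached 1 CPM in any library, and Nkg7, a marker of cytotoxic lymphocytes, was at 0 in all. The fibroblast sum was 0.811 to 10.2 CPM in RAG2KO organoids, 0.996 to 2.24 CPM in C57Bl6 organoids, 6.8 CPM in the constitutive line, 0.699 CPM in the inducible line and 0.286 to 0.524 CPM in naive organoids. The immune sum was 6.47 to 16.5 CPM in RAG2KO organoids, 5.78 to 10.1 CPM in C57Bl6 organoids, 15 CPM in the constitutive line, 5.83 CPM in the inducible line and 4.07 to 11.2 CPM in naive organoids. The endothelial sum was 1.35 to 4.55 CPM in RAG2KO organoids, 1.18 to 1.77 CPM in C57Bl6 organoids, 6.69 CPM in the constitutive line, 2.68 CPM in the inducible line and 1.19 to 1.45 CPM in naive organoids. Of 4 fibroblast markers tested, 1 was higher in RAG2KO and 1 in C57Bl6 organoids against naive, beside 16% and 9.5% of all tested genes. Of 4 immune markers tested, 1 was higher in RAG2KO organoids. No marker of either list was lower, and none was called in the lines.

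In RAG2KO organoids most of the ATF4 programme was lower than in naive organoids, from the factor itself to the enzymes, carriers and synthetases downstream of it. Trib3 averaged 31.99 ± 4.93 CPM in RAG2KO organoids and 124 ± 18.6 CPM in naive organoids (SD, n = 3 each), Asns 187 ± 31.7 CPM in RAG2KO organoids and 443 ± 27.7 CPM in naive organoids, and the leucine carrier Slc7a5 67.9 ± 1.40 CPM in RAG2KO organoids and 178 ± 30.7 CPM in naive organoids. At an adjusted p under 0.05 in edgeR's quasi-likelihood test, 28 of the 37 genes were lower and 1, Nupr1, was higher, against 13.3% of all tested genes lower and 16% higher (29.2% in either direction). The lower genes held both kinases, 4 of 7 regulators, 2 of 4 stress effectors, 8 of 9 enzymes, 4 of 7 transporters and all 8 synthetases. The median log2 fold change of the 37 was -0.92, against 0.02 over all genes. In 30 of them every RAG2KO library lay below every naive library, against 22.4% of all genes, and in Nupr1 every one lay above, against 24.8%. The 8 genes that did not pass were Ddit3, Cebpg, Ddit4, Vldlr, Pycr1, Slc7a11, Slc1a4 and Slc1a5, with log2 fold changes of -1.17 to 0.40. When the Rn45s share entered the fit as a covariate, 6 of the 29 calls remained (Trib3, Asns, Mthfd2, Aldh18a1, Slc7a1 and Nars) and 26 genes had an unadjusted p under 0.05. With that covariate the median log2 fold change was -0.95, the median SE was 0.29, against 0.17 without it, and 148 genes were called over the whole table, against 4010. The Rn45s share separated these groups without overlap (6.56 to 8.54% in RAG2KO and 2.42 to 4.99% in naive organoids). Group and ribosomal share thus cannot be told apart in this comparison.

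**Figure D1:**
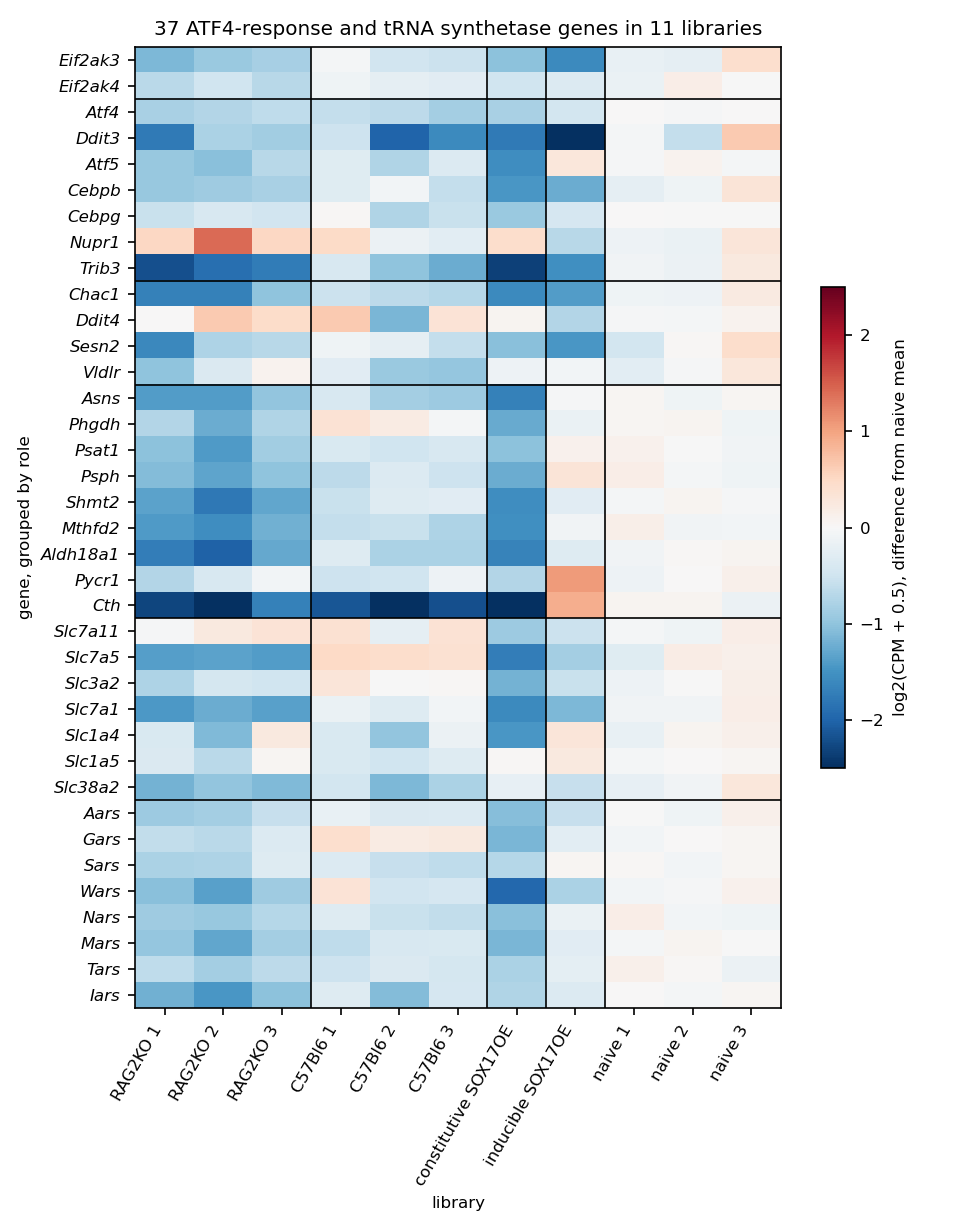
Heatmap of all 37 genes (rows, grouped by role) in the 11 libraries (columns), where colour is the difference of log2(CPM + 0.5) from the mean of the naive libraries. The median over the 37 genes was -0.97, -0.95 and -0.75 in the RAG2KO libraries, -0.33, -0.49 and -0.43 in the C57Bl6 libraries, -1.13 in the constitutive line, -0.33 in the inducible line and -0.05, -0.03 and 0.07 in the naive libraries.

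In C57Bl6 organoids the same comparison with naive organoids gave fewer calls. Cth, which makes cysteine, averaged 23.6 ± 5.48 CPM in C57Bl6 organoids and 122 ± 10.2 CPM in naive organoids (SD, n = 3 each), and Atf4 averaged 448 ± 41.2 CPM in C57Bl6 organoids and 727 ± 13.01 CPM in naive organoids. Of the 37 genes, 11 were lower and none was higher (edgeR, as above), against 5.85% of all genes lower and 9.5% higher (15.3% in either direction). The 11 were Atf4, Trib3, Asns, Psph, Mthfd2, Cth, Slc38a2, Sars, Nars, Mars and Tars, and the median of the 37 was -0.42, against 0.02 over all genes. In 21 genes every C57Bl6 library lay below every naive library (16.9% of all genes) and in 2, Slc7a5 and Gars, every one lay above (19.9% of all genes). At an unadjusted p under 0.05 there were 23 genes. DESeq2's Wald test called 18 (17 lower and 1 higher) and limma voom 21, all lower. The count was 4 without C57Bl6 replicate 2, 3 without C57Bl6 replicate 3, and 4, 5 and 6 without naive replicates 1, 2 and 3, while the median of the 37 stayed at -0.47 to -0.39. Atf4, Mthfd2 and Cth were called under every alternative. Each of the other 8 calls was lost without any of 3 to 7 different libraries, and in those fits the log2 fold changes were -0.93 to -0.39. With the Rn45s covariate 5 were called, namely Atf4, Asns, Mthfd2, Cth and Slc38a2.

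Compared directly, RAG2KO organoids were lower than C57Bl6 organoids for 18 of the 37 genes and higher for none, against 12.2% of all genes lower and 11.8% higher (24% in either direction). The largest difference was in Slc7a5, which averaged 67.9 ± 1.40 CPM in RAG2KO organoids and 239.6 ± 10.3 CPM in C57Bl6 organoids (SD, n = 3 each). Slc7a1, a carrier of arginine and lysine, averaged 57.5 ± 3.95 CPM in RAG2KO organoids and 129.5 ± 11.4 CPM in C57Bl6 organoids, and Shmt2, the mitochondrial enzyme that takes one-carbon units from serine, 94.8 ± 17.1 CPM in RAG2KO organoids and 201 ± 20.8 CPM in C57Bl6 organoids. The 18 held 7 of 9 enzymes, 5 of 8 synthetases, 3 of 7 transporters, 2 of 7 regulators, 1 of 4 stress effectors and neither kinase. The median over the 37 was -0.53, against -0.001 over all genes. In 22 of them every RAG2KO library lay below every C57Bl6 library, against 20.4% of all genes, and in 1, Nupr1, every one lay above, against 19.4%. Atf4 itself did not pass, with a log2 fold change of -0.03 and an SE of 0.11 (adjusted p = 0.89), and its sign depended on the scaling (0.08 with upper quartile scaling).

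Of these 18 calls, 12 held whichever single library was left out, and 6 did not. Chac1 was lost without RAG2KO replicate 1 (adjusted p = 0.0523) or 2 (0.0582). Mars was lost without RAG2KO replicate 2 (0.0502) or C57Bl6 replicate 3 (0.0596). Aars was lost without RAG2KO replicates 1 (0.0649) or 2 (0.0694) or C57Bl6 replicates 1 (0.0671) or 3 (0.0566). Asns, Cebpb and Iars were each lost without 7 of the 11 libraries, with adjusted p of 0.0521 to 0.132, 0.0563 to 0.121 and 0.0506 to 0.113. Iars lies on chromosome 13, where the 419 tested genes of C57Bl6 replicate 2 had a median log2 difference of -0.76 from the naive mean. With the Rn45s covariate none of the 18 was called in edgeR, while 15 had an unadjusted p under 0.05, and the median log2 fold change was -0.64 with a median SE of 0.34. Over the whole table that fit called 2 genes, against 3295 without the covariate, and no library of either group had a ribosomal share within the range of the other.

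The SOX17OE lines, tested as the mean of both lines against naive organoids, were lower for 23 of the 37 genes and higher for none, against 5.92% of all genes lower and 6.77% higher (12.7% in either direction). Trib3 was at 24.03 CPM in the constitutive line and 42.2 CPM in the inducible line, against 124 ± 18.6 CPM in naive organoids (SD, n = 3), and Slc7a5 was at 52.9 CPM in the constitutive line and 97.3 CPM in the inducible line, against 178 ± 30.7 CPM in naive organoids. The median over the 37 was -0.71, against -0.01 over all genes, and in 25 genes both lines lay below every naive library, against 23% of all genes. The 23 held 1 of 2 kinases, 5 of 7 regulators, 2 of 4 stress effectors, 5 of 9 enzymes, 4 of 7 transporters and 6 of 8 synthetases. Log2 fold changes were -1.96 (SE 0.26, adjusted p = 0.00305) for Trib3, -1.31 (SE 0.16, adjusted p = 0.00203) for Slc7a5 and -1.39 (SE 0.25, adjusted p = 0.0104) for the synthetase Wars. Each line is 1 library, so its own spread is unknown and was taken from the other groups. The lines differed, and the constitutive line was below the inducible line in 31 of 37 genes. The constitutive line lay below the naive range in 33 genes, with a median of 0.454 of the naive mean, and was below both tumour group means in 30. The inducible line lay below the naive range in 27 genes and above it in 8, with a median of 0.792 of the naive mean. These counts for single lines were made for the 37 genes only. No share over all tested genes can be set beside them, so they are not read as particular to these genes. Without the constitutive line 1 gene, Slc7a1, was called and the median was -0.34. Without the inducible line 23 were called, 20 of them shared with the fit of both lines, and the median was -1.14. The count was 12 without naive replicate 2, 14 without naive replicate 3 and 10 with the Rn45s covariate.

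**Figure D2:**
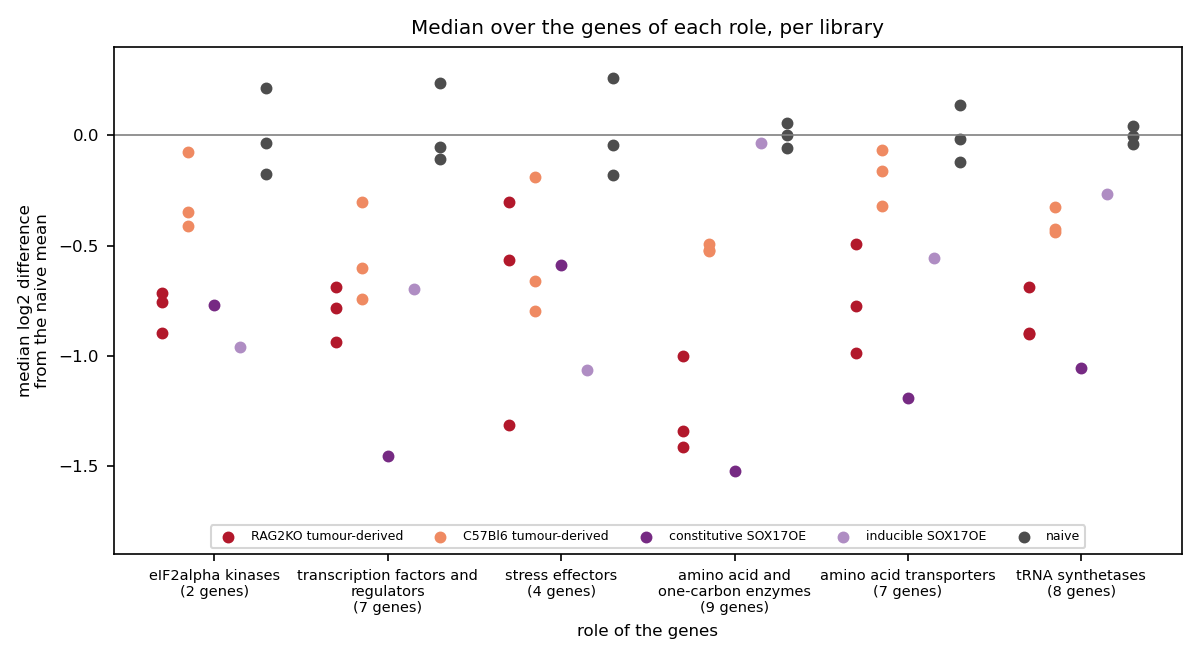
Median log2 difference from the naive mean (y axis) over the genes of each role (x axis), where each point is a library. In the enzymes the 3 RAG2KO libraries and the constitutive line lie between -1.52 and -0.999, while the inducible line lies at -0.04, beside the naive libraries.

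Both kinases that carry amino acid or protein-folding stress to ATF4 were lower in RAG2KO than in naive organoids. Eif2ak3, which encodes PERK, was at 22.7, 26.1 and 27.9 CPM in RAG2KO, 48.4, 35.8 and 34.1 CPM in C57Bl6, 24.2 CPM in constitutive SOX17OE, 16.3 CPM in inducible SOX17OE and 43.7, 42.6 and 67.4 CPM in naive organoids. All RAG2KO libraries and both lines lay below the naive range, while C57Bl6 libraries overlapped it, and the log2 fold change was -1.001 (SE 0.21, adjusted p = 0.00733) for RAG2KO and -1.37 (SE 0.24, adjusted p = 0.0102) for the SOX17OE lines. The SOX17OE call was lost without the constitutive (adjusted p = 0.0577) or the inducible line (0.05, at the threshold). Eif2ak4, which encodes GCN2, was at 14.9, 16.8 and 14.7 CPM in RAG2KO, 22.2, 20.5 and 19.7 CPM in C57Bl6, 16.8 CPM in constitutive SOX17OE, 18.9 CPM in inducible SOX17OE and 21.4, 26.8 and 23.98 CPM in naive organoids. RAG2KO organoids were lower than naive organoids (log2 fold change -0.64, SE 0.14, adjusted p = 0.00894), a call lost without naive replicate 2 (adjusted p = 0.0512). Between RAG2KO and C57Bl6 organoids neither kinase passed, with adjusted p of 0.0533 for Eif2ak3 and 0.0504 for Eif2ak4, although no RAG2KO library overlapped a C57Bl6 library in either.

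Atf4 mRNA was lower in both tumour groups and in the mean of the SOX17OE lines than in naive organoids. It was at 415, 435 and 471 CPM in RAG2KO, 479.7, 463 and 401 CPM in C57Bl6, 417 CPM in constitutive SOX17OE, 529 CPM in inducible SOX17OE and 733, 712 and 736 CPM in naive organoids. No library outside the naive group reached the naive range, and the RAG2KO and C57Bl6 libraries overlapped each other. The log2 fold change against naive was -0.72 (SE 0.11, adjusted p = 0.00196) for RAG2KO, -0.70 (SE 0.11, adjusted p = 0.00308) for C57Bl6 and -0.63 (SE 0.13, adjusted p = 0.016) for the SOX17OE lines, the last of which was lost without naive replicate 2 (adjusted p = 0.056) or the constitutive line (0.185). The 2 tumour comparisons share their naive libraries and are not independent.

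Among the regulators, Trib3, a pseudokinase that restrains ATF4 activity, had the largest fall in RAG2KO organoids. Its level was 26.6, 33.1 and 36.3 CPM in RAG2KO, 92.8, 61.4 and 51.8 CPM in C57Bl6, 24.03 CPM in constitutive SOX17OE, 42.2 CPM in inducible SOX17OE and 115, 112 and 145 CPM in naive organoids. RAG2KO, C57Bl6 and naive libraries formed 3 ranges that did not overlap. The log2 fold change was -1.95 (SE 0.23, adjusted p = 0.000491) for RAG2KO against naive, -0.85 (SE 0.22, adjusted p = 0.0261) for C57Bl6 against naive and -1.10 (SE 0.22, adjusted p = 0.00854) for RAG2KO against C57Bl6. The C57Bl6 call against naive was lost without any of 5 libraries (adjusted p = 0.0557 to 0.081). Ddit3, which encodes the pro-apoptotic factor CHOP, was at 30.5, 60.4 and 57.3 CPM in RAG2KO, 72.6, 25.8 and 34.5 CPM in C57Bl6, 30.3 CPM in constitutive SOX17OE, 16.2 CPM in inducible SOX17OE and 101, 68.9 and 164 CPM in naive organoids. Its naive libraries spread widely, and neither tumour group passed the test (RAG2KO log2 fold change -1.17, SE 0.44, adjusted p = 0.0749, and C57Bl6 log2 fold change -1.33, SE 0.45, adjusted p = 0.0749), while the SOX17OE lines did (log2 fold change -2.33, SE 0.54, adjusted p = 0.0261). The Ddit3 call was lost without either line or without naive replicate 3, with adjusted p of 0.0803 to 0.12.

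Atf5, a related bZIP factor, was at 30.1, 28.3 and 36.3 CPM in RAG2KO, 47.6, 34.7 and 46.5 CPM in C57Bl6, 19.8 CPM in constitutive SOX17OE, 71.9 CPM in inducible SOX17OE and 57.3, 62.3 and 56.9 CPM in naive organoids. Atf5 fell in RAG2KO organoids against naive (log2 fold change -0.90, SE 0.15, adjusted p = 0.00306), and the inducible line lay above the naive range while the constitutive line lay far below it. The called fall in the lines (log2 fold change -0.64, SE 0.17, adjusted p = 0.04) turned to 0.29 without the constitutive line, and was lost without any of 5 libraries in all (adjusted p = 0.0542 to 0.487). Cebpb, a C/EBP factor that pairs with ATF4, was at 16.7, 17.2 and 18.2 CPM in RAG2KO, 26.3, 31.03 and 21.3 CPM in C57Bl6, 11.5 CPM in constitutive SOX17OE, 13.5 CPM in inducible SOX17OE and 27.9, 30.2 and 40.8 CPM in naive organoids. Cebpb was lower in RAG2KO than in naive organoids (log2 fold change -0.92, SE 0.19, adjusted p = 0.00637) and lower in the lines (log2 fold change -1.40, SE 0.22, adjusted p = 0.00632). The Cebpb call for the lines was lost without the constitutive line, where the log2 fold change was -1.29. Cebpg, another C/EBP partner, passed no comparison, with means of 74.6 CPM in RAG2KO, 79.5 CPM in C57Bl6 and 104 CPM in naive organoids. Nupr1, a small stress-induced chromatin protein, went the other way and was at 641, 1195 and 645 CPM in RAG2KO, 627, 406 and 374 CPM in C57Bl6, 607 CPM in constitutive SOX17OE, 277 CPM in inducible SOX17OE and 408, 398 and 555 CPM in naive organoids. All RAG2KO libraries were above the naive range, with replicate 2 far above the others, and the call (log2 fold change 0.87, SE 0.28, adjusted p = 0.0449) was lost without that library (adjusted p = 0.157), without C57Bl6 replicate 2 (0.0513) or without naive replicates 1 (0.125), 2 (0.14) or 3 (0.0548).

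Of the stress effectors, Chac1, which breaks down glutathione, was at 13.6, 13.5 and 21.95 CPM in RAG2KO, 30.6, 28.3 and 27.1 CPM in C57Bl6, 14.5 CPM in constitutive SOX17OE, 16.7 CPM in inducible SOX17OE and 41.7, 40.98 and 52.8 CPM in naive organoids. The 3 RAG2KO libraries and both lines lay below every C57Bl6 and naive library. The log2 fold change was -1.47 (SE 0.20, adjusted p = 0.00117) for RAG2KO against naive, -0.81 (SE 0.20, adjusted p = 0.0188) for RAG2KO against C57Bl6 and -1.54 (SE 0.24, adjusted p = 0.00593) for the lines. The Chac1 call for the lines was lost without the constitutive line, where the log2 fold change was -1.43. Sesn2, a leucine-sensing inhibitor of mTORC1, was scarce, at 3.17, 6.13 and 6.49 CPM in RAG2KO, 10.01, 9.20 and 6.92 CPM in C57Bl6, 4.96 CPM in constitutive SOX17OE, 3.61 CPM in inducible SOX17OE and 7.65, 10.96 and 14.8 CPM in naive organoids. It was lower in RAG2KO organoids (log2 fold change -1.08, SE 0.33, adjusted p = 0.0332), a call lost without RAG2KO replicates 1 (adjusted p = 0.0786) or 2 (0.0564) or naive replicates 2 (0.0862) or 3 (0.124). It was also lower in the lines (log2 fold change -1.40, SE 0.38, adjusted p = 0.0404), a call lost without any of 5 libraries (0.0509 to 0.15). Ddit4, an mTORC1 inhibitor, and Vldlr, a lipoprotein receptor, passed no comparison, and Ddit4 ranged from 210.1 to 734 CPM within the C57Bl6 group.

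The serine pathway was lower at each step in RAG2KO organoids. Phgdh, its first enzyme, was at 282, 199 and 281 CPM in RAG2KO, 604, 544 and 455 CPM in C57Bl6, 197 CPM in constitutive SOX17OE, 422 CPM in inducible SOX17OE and 489, 491 and 436 CPM in naive organoids. RAG2KO libraries lay below both other replicated groups, which overlapped each other, with -0.89 (SE 0.16, adjusted p = 0.00407) against naive and -1.07 (SE 0.16, adjusted p = 0.00354) against C57Bl6. Psat1, the second enzyme, was at 229, 176 and 256 CPM in RAG2KO, 360.3, 332 and 356 CPM in C57Bl6, 231 CPM in constitutive SOX17OE, 507 CPM in inducible SOX17OE and 505, 465 and 438 CPM in naive organoids. Psat1 fell in RAG2KO organoids against naive (log2 fold change -1.09, SE 0.15, adjusted p = 0.000994) and against C57Bl6 organoids (log2 fold change -0.67, SE 0.14, adjusted p = 0.0115), and the inducible line was just above the naive range. Psph, the last enzyme, was at 70.1, 59.7 and 74.5 CPM in RAG2KO, 95, 118 and 104 CPM in C57Bl6, 63.1 CPM in constitutive SOX17OE, 188 CPM in inducible SOX17OE and 168, 144 and 138 CPM in naive organoids. Its RAG2KO, C57Bl6 and naive libraries formed 3 separate ranges, with -1.14 (SE 0.14, adjusted p = 0.000615) for RAG2KO and -0.51 (SE 0.14, adjusted p = 0.032) for C57Bl6 against naive and -0.63 (SE 0.14, adjusted p = 0.011) for RAG2KO against C57Bl6. The C57Bl6 call for Psph was lost without any of 4 libraries (adjusted p = 0.0844 to 0.105).

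The mitochondrial one-carbon enzymes were also lower in RAG2KO organoids. Shmt2 was at 103, 75.2 and 106 CPM in RAG2KO, 177, 209 and 216 CPM in C57Bl6, 88.8 CPM in constitutive SOX17OE, 215 CPM in inducible SOX17OE and 254, 274 and 257 CPM in naive organoids. Mthfd2, which oxidises the one-carbon unit that Shmt2 releases, was at 85.5, 76.8 and 99.2 CPM in RAG2KO, 150.3, 155 and 134 CPM in C57Bl6, 78.8 CPM in constitutive SOX17OE, 213 CPM in inducible SOX17OE and 252, 214 and 218 CPM in naive organoids. In both genes the RAG2KO range lay below the C57Bl6 range and that below the naive range. Shmt2 differed on the log2 scale by -1.47 (SE 0.15, adjusted p = 0.000284) for RAG2KO against naive and -1.08 (SE 0.15, adjusted p = 0.00272) for RAG2KO against C57Bl6. Mthfd2 differed on the log2 scale by -1.39 (SE 0.13, adjusted p = 0.000211) for RAG2KO against naive, -0.64 (SE 0.13, adjusted p = 0.00981) for C57Bl6 against naive and -0.75 (SE 0.13, adjusted p = 0.00521) for RAG2KO against C57Bl6. Both were lower in the SOX17OE lines, at -0.92 for Shmt2 (adjusted p = 0.0111) and -0.82 for Mthfd2 (adjusted p = 0.011), and both calls were lost without the constitutive line (0.501 and 0.816).

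Asns, which makes asparagine and is the textbook target of ATF4, was at 169, 169 and 224 CPM in RAG2KO, 335, 244 and 234 CPM in C57Bl6, 136 CPM in constitutive SOX17OE, 432 CPM in inducible SOX17OE and 460.1, 412 and 459 CPM in naive organoids. Of the replicated groups the RAG2KO libraries were lowest and the C57Bl6 libraries lay between, and the inducible line was within the naive range. Asns was lower in RAG2KO (log2 fold change -1.25, SE 0.17, adjusted p = 0.00108) and in C57Bl6 organoids (log2 fold change -0.71, SE 0.17, adjusted p = 0.0192) than in naive organoids. The C57Bl6 call was lost without any of 4 libraries (adjusted p = 0.0515 to 0.0699). Aldh18a1, which starts proline synthesis, was at 53.04, 43.6 and 72.7 CPM in RAG2KO, 142, 103 and 103 CPM in C57Bl6, 55.5 CPM in constitutive SOX17OE, 143 CPM in inducible SOX17OE and 167, 181 and 187 CPM in naive organoids. It was lower in RAG2KO than in naive (log2 fold change -1.66, SE 0.20, adjusted p = 0.00061) and C57Bl6 organoids (log2 fold change -1.04, SE 0.20, adjusted p = 0.00672). Pycr1, which completes proline synthesis in mitochondria, passed no comparison and was highest in the inducible line at 40.1 CPM, against 18.8 ± 1.61 CPM in naive organoids (SD, n = 3). Cth, the cystathionine lyase that yields cysteine, was at 24.4, 14.2 and 37.6 CPM in RAG2KO, 27.2, 17.3 and 26.3 CPM in C57Bl6, 18.3 CPM in constitutive SOX17OE, 229 CPM in inducible SOX17OE and 129, 127 and 110.4 CPM in naive organoids. It had the largest fall of the 37 genes in each tumour group, with -2.27 (SE 0.31, adjusted p = 0.00121) for RAG2KO and -2.37 (SE 0.31, adjusted p = 0.00118) for C57Bl6 against naive. The tumour groups overlapped each other and differed on the log2 scale by 0.10 (SE 0.30, adjusted p = 0.821). The inducible line lay above and the constitutive line below the naive range of Cth.

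**Figure D3:**
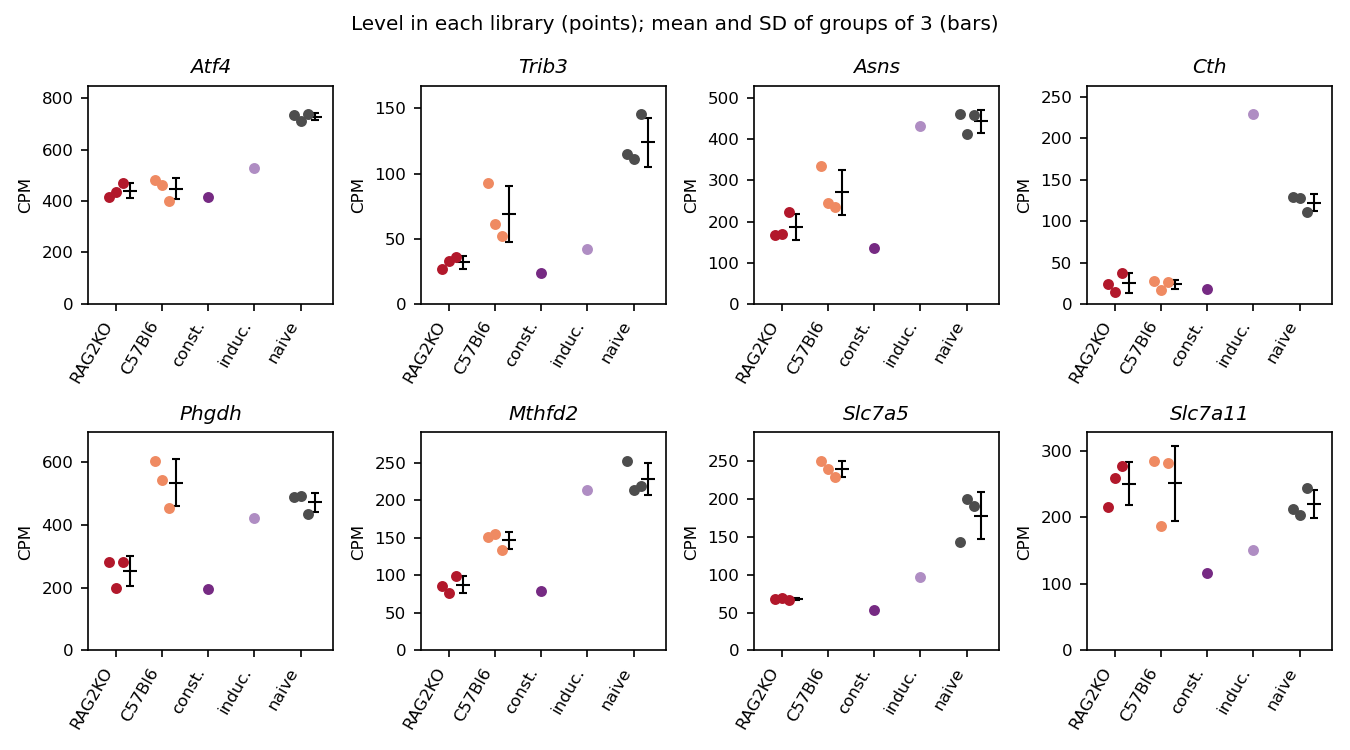
Levels in CPM (y axis, from 0) of single genes in RAG2KO, C57Bl6, constitutive SOX17OE, inducible SOX17OE and naive organoids (x axis), where each point is a library and bars give the mean and SD of the groups of 3. For Slc7a5 the 3 RAG2KO libraries sit between 66.8 and 69.5 CPM and the 3 C57Bl6 libraries between 229.6 and 250.2 CPM, on either side of the naive libraries.

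Carriers of large neutral and cationic amino acids separated the tumour groups. Slc7a5, the light chain of the leucine exchanger LAT1, was at 67.5, 69.5 and 66.8 CPM in RAG2KO, 250.2, 239 and 229.6 CPM in C57Bl6, 52.9 CPM in constitutive SOX17OE, 97.3 CPM in inducible SOX17OE and 143, 199.8 and 191 CPM in naive organoids. Every RAG2KO library lay below, and every C57Bl6 library above, the naive range. RAG2KO organoids were lower than naive (log2 fold change -1.39, SE 0.14, adjusted p = 0.000231) and C57Bl6 organoids (log2 fold change -1.82, SE 0.14, adjusted p = 0.000302), while C57Bl6 against naive gave 0.43 (SE 0.14, adjusted p = 0.0573), which did not pass. Slc3a2, the heavy chain shared by LAT1 and the cystine exchanger, was at 186, 235 and 227 CPM in RAG2KO, 394, 317 and 324 CPM in C57Bl6, 139.6 CPM in constitutive SOX17OE, 217 CPM in inducible SOX17OE and 293, 316 and 351 CPM in naive organoids. It was lower in RAG2KO than in naive (log2 fold change -0.57, SE 0.14, adjusted p = 0.0144) and C57Bl6 organoids (log2 fold change -0.68, SE 0.14, adjusted p = 0.00944). Slc7a1 was at 53.98, 61.8 and 56.8 CPM in RAG2KO, 131, 117 and 140 CPM in C57Bl6, 48.1 CPM in constitutive SOX17OE, 67.6 CPM in inducible SOX17OE and 139, 139 and 164 CPM in naive organoids. It differed on the log2 scale by -1.36 (SE 0.12, adjusted p = 0.000163) for RAG2KO against naive, -1.17 (SE 0.12, adjusted p = 0.00135) for RAG2KO against C57Bl6 and -1.37 (SE 0.14, adjusted p = 0.00126) for the SOX17OE lines, and it kept the last call under every alternative tried.

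Slc38a2, a sodium-coupled carrier of small neutral amino acids, was at 147, 167 and 156 CPM in RAG2KO, 243, 152 and 193 CPM in C57Bl6, 289 CPM in constitutive SOX17OE, 221 CPM in inducible SOX17OE and 289, 314 and 405 CPM in naive organoids. Both tumour groups were lower than naive organoids (RAG2KO log2 fold change -1.10, SE 0.19, adjusted p = 0.00284, and C57Bl6 log2 fold change -0.78, SE 0.18, adjusted p = 0.0192). The C57Bl6 call was lost without C57Bl6 replicates 2 or 3 or naive replicate 3 (adjusted p = 0.0521 to 0.0598). Slc7a11, the light chain of the cystine exchanger, was at 216, 259 and 278 CPM in RAG2KO, 285, 187 and 282 CPM in C57Bl6, 117 CPM in constitutive SOX17OE, 151 CPM in inducible SOX17OE and 212, 204 and 245 CPM in naive organoids. Both tumour groups overlapped the naive range, and only the SOX17OE lines passed (log2 fold change -0.73, SE 0.20, adjusted p = 0.0416), a call lost without any of 6 libraries (0.0515 to 0.294). Slc1a4 and Slc1a5, exchangers of serine, alanine or glutamine, passed no comparison. Slc1a4 ranged from 48.8 to 124 CPM within the RAG2KO group.

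All 8 synthetases were lower in RAG2KO than in naive organoids, and in each no RAG2KO library overlapped a naive one. Each loads 1 amino acid onto its tRNA. Aars, for alanine, was at 174, 182 and 218 CPM in RAG2KO, 288, 252 and 257 CPM in C57Bl6, 155 CPM in constitutive SOX17OE, 218 CPM in inducible SOX17OE and 324, 302 and 355 CPM in naive organoids. It differed on the log2 scale by -0.77 (SE 0.13, adjusted p = 0.00252) for RAG2KO against naive and -0.48 (SE 0.13, adjusted p = 0.0244) for RAG2KO against C57Bl6. Gars, for glycine, was at 309, 297 and 374 CPM in RAG2KO, 630.1, 541 and 561 CPM in C57Bl6, 214 CPM in constitutive SOX17OE, 394 CPM in inducible SOX17OE and 450.3, 475 and 489 CPM in naive organoids. The C57Bl6 libraries were all above the naive range (not called, adjusted p = 0.144) and the RAG2KO libraries all below it (log2 fold change -0.53, SE 0.12, adjusted p = 0.0121), and the tumour groups differed on the log2 scale by -0.82 (SE 0.12, adjusted p = 0.00354). Wars, for tryptophan, which is also known as an interferon-gamma-induced gene, was at 100.2, 80.5 and 111 CPM in RAG2KO, 261, 148 and 154 CPM in C57Bl6, 52.6 CPM in constitutive SOX17OE, 118 CPM in inducible SOX17OE and 197, 202 and 221 CPM in naive organoids. C57Bl6 replicate 1 stood above the other C57Bl6 libraries, and RAG2KO organoids were lower than naive (log2 fold change -1.09, SE 0.22, adjusted p = 0.00601) and C57Bl6 organoids (log2 fold change -0.95, SE 0.22, adjusted p = 0.0137).

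Sars, for serine, was at 329, 336 and 457 CPM in RAG2KO, 447, 384 and 369 CPM in C57Bl6, 348 CPM in constitutive SOX17OE, 589 CPM in inducible SOX17OE and 579, 545 and 586 CPM in naive organoids. The tumour groups overlapped each other, and both were below naive organoids (RAG2KO log2 fold change -0.61, SE 0.15, adjusted p = 0.0141, and C57Bl6 log2 fold change -0.51, SE 0.15, adjusted p = 0.0433). The RAG2KO call was lost without RAG2KO replicate 2 (adjusted p = 0.0525) and the C57Bl6 call without any of 5 libraries (0.0971 to 0.134). Nars, for asparagine, was at 559, 539 and 631 CPM in RAG2KO, 833, 706 and 682 CPM in C57Bl6, 506 CPM in constitutive SOX17OE, 921 CPM in inducible SOX17OE and 1168, 996 and 967 CPM in naive organoids. The groups formed 3 ranges in the order RAG2KO, C57Bl6, naive, with -0.86 (SE 0.13, adjusted p = 0.00184) for RAG2KO and -0.50 (SE 0.13, adjusted p = 0.0301) for C57Bl6 against naive. Mars, for methionine, was at 109, 87.2 and 119 CPM in RAG2KO, 138, 163 and 166 CPM in C57Bl6, 97.5 CPM in constitutive SOX17OE, 177 CPM in inducible SOX17OE and 207, 225 and 212 CPM in naive organoids. It was lower in RAG2KO than in naive (log2 fold change -1.03, SE 0.14, adjusted p = 0.000994) and C57Bl6 organoids (log2 fold change -0.57, SE 0.14, adjusted p = 0.0171). Tars, for threonine, was at 186, 159.9 and 183 CPM in RAG2KO, 202, 226 and 212 CPM in C57Bl6, 167 CPM in constitutive SOX17OE, 243 CPM in inducible SOX17OE and 317, 293 and 259 CPM in naive organoids. Its RAG2KO libraries lay below those of both other replicated groups, with -0.71 (SE 0.12, adjusted p = 0.00284) against naive. The C57Bl6 calls for Nars (0.0301), Mars (0.0457) and Tars (0.0338) were lost without 4, 7 and 5 of the 11 libraries, with adjusted p of 0.0783 to 0.102, 0.0561 to 0.151 and 0.0509 to 0.116. Iars, for isoleucine, was at 133, 111 and 149.7 CPM in RAG2KO, 243, 143 and 226 CPM in C57Bl6, 181 CPM in constitutive SOX17OE, 242 CPM in inducible SOX17OE and 305, 295 and 315 CPM in naive organoids. It was lower in RAG2KO than in naive organoids (log2 fold change -1.22, SE 0.19, adjusted p = 0.00215), and C57Bl6 replicate 2 was nearer to the RAG2KO libraries than to the other C57Bl6 libraries.

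**Figure D4:**
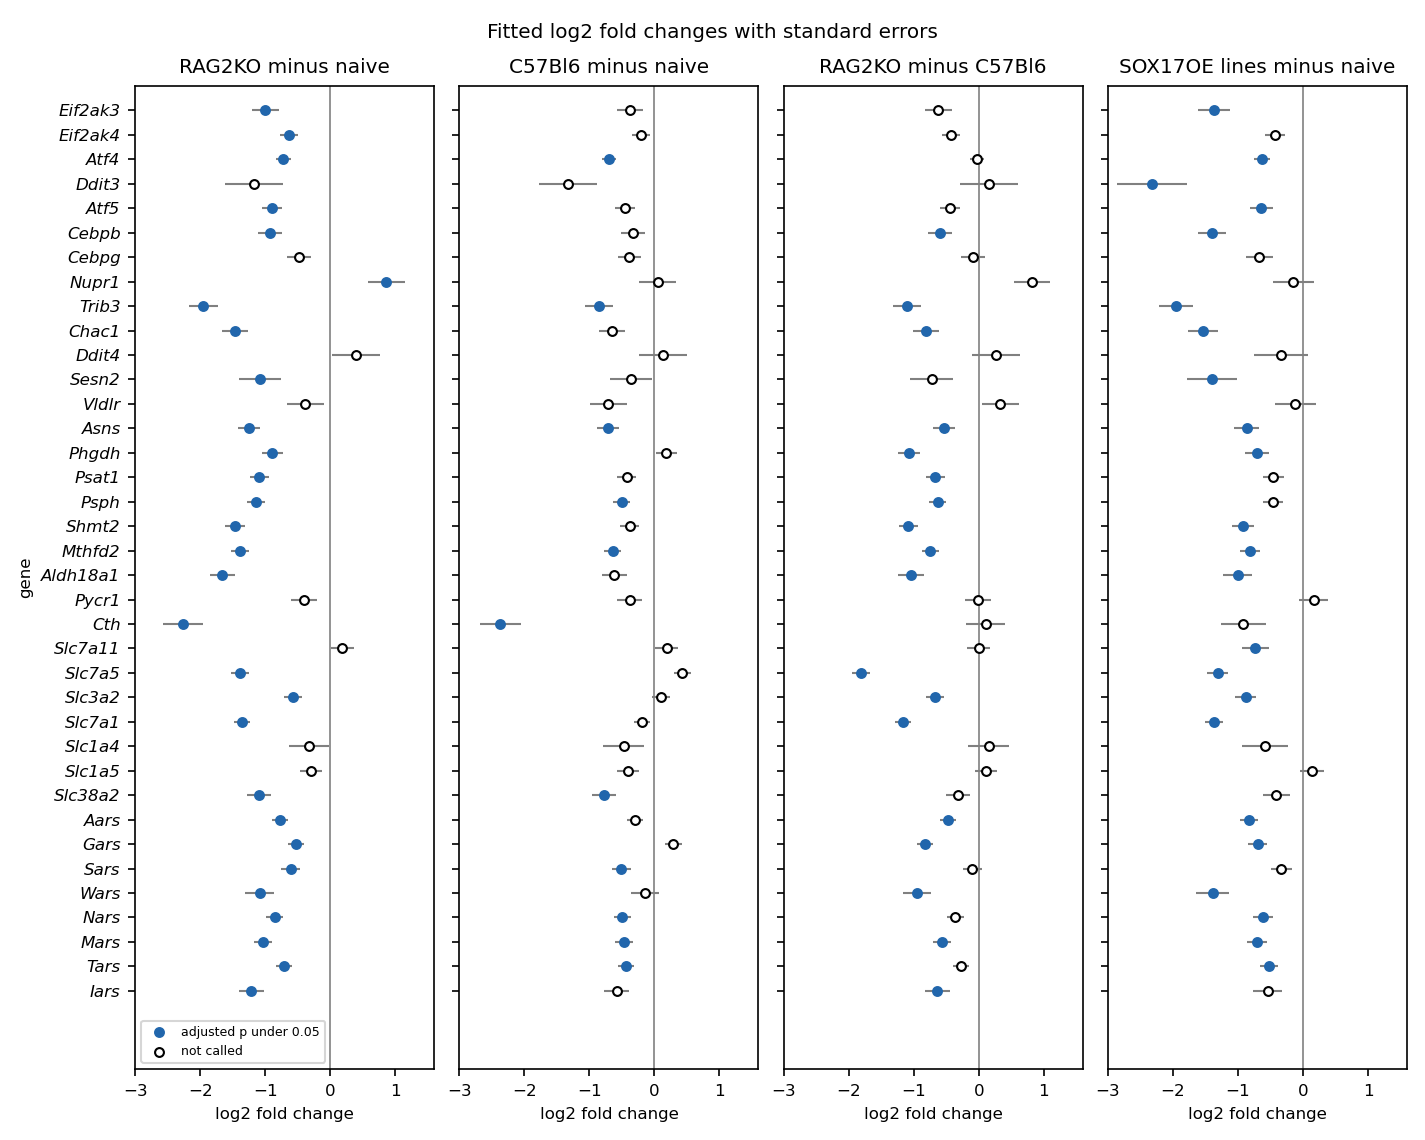
Fitted log2 fold changes (x axis) with standard errors (bars) of the 37 genes (y axis) in the 4 comparisons (panels), where filled points passed an adjusted p of 0.05 and open points did not. The panels hold 29, 11, 18 and 23 filled points, of which 1, Nupr1 in RAG2KO against naive, lies above 0.

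Calls were counted beside the promoter matches. Of the 12 genes with a match, 7 were lower, 1 was higher and 4 were not called in RAG2KO against naive organoids. Of the 20 genes with a window but no match, 17 were lower and 3 not called. For RAG2KO against C57Bl6, 6 of 12 genes with a match and 10 of 20 without were lower. No test was made of these counts.

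Other genes of the pathway were counted from lists written from general knowledge. These lists were chosen with earlier results of these data known, so their counts are a description and not independent evidence. The shares of all tested genes to set beside these counts are 13.3% lower and 16% higher in RAG2KO against naive organoids, 5.85% lower and 9.5% higher in C57Bl6 against naive organoids, and 5.92% lower and 6.77% higher in the lines. Of 16 further ATF4-responsive genes, 13 were lower and none higher in RAG2KO against naive organoids, with a median log2 fold change of -1.16. In C57Bl6 organoids 3 were lower and 1 higher, and in the SOX17OE lines 10 were lower and 1 higher. Xpot, which exports tRNA from the nucleus, averaged 103 CPM in RAG2KO, 157 CPM in C57Bl6 and 205 CPM in naive organoids, with -1.0 (SE 0.10, adjusted p = 0.000308) for RAG2KO and -0.38 (SE 0.10, adjusted p = 0.033) for C57Bl6 against naive. Gpt2, a mitochondrial alanine transaminase, averaged 14.8 CPM in RAG2KO and 47.6 CPM in naive organoids (log2 fold change -1.69, SE 0.26, adjusted p = 0.00196). Cbs, the enzyme upstream of Cth, was the gene that was higher in C57Bl6 organoids and in the lines. Its level was 3.71 CPM in C57Bl6, 6.97 CPM in the constitutive line, 2.39 CPM in the inducible line and 0.74 CPM in naive organoids (log2 fold change 2.33, SE 0.39, adjusted p = 0.00368 for C57Bl6 against naive). The lines against naive gave a log2 fold change of 2.47 (SE 0.42, adjusted p = 0.0087).

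Of the 12 other cytosolic synthetases, 8 were lower in RAG2KO than in naive organoids, 2 in C57Bl6 organoids and 3 in the lines, with none higher. The medians were -0.61, -0.22 and -0.25. Eprs, for glutamate and proline, averaged 203 CPM in RAG2KO and 379.5 CPM in naive organoids (log2 fold change -0.90, SE 0.12, adjusted p = 0.000841). Vars, for valine, averaged 88.5 CPM in RAG2KO and 207 CPM in C57Bl6 organoids (log2 fold change -1.23, SE 0.16, adjusted p = 0.00255). Of the 17 mitochondrial synthetases, 7 were lower and 1 was higher in RAG2KO against naive organoids, and none was called in C57Bl6 organoids or in the lines, where 6 and 5 had an unadjusted p under 0.05. The one that was higher, Lars2, ranged from 6512 to 7649 CPM in RAG2KO organoids, 1251 to 3075 CPM in C57Bl6 organoids and 1841 to 4202 CPM in naive organoids, and stood at 5101 CPM in the constitutive and 2934 CPM in the inducible line. Its order over the groups was that of Rn45s, and the part of ribosomal reads in its count was not tested.

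Of the 10 other folate genes, 6 were lower and none higher in RAG2KO than in naive organoids, with log2 fold changes of -1.55 to 2.87. In C57Bl6 organoids 1 was lower and 1 higher, with log2 fold changes of -0.58 to 4.44, and in the lines 2 were lower and none higher. Mthfd1l, a mitochondrial one-carbon enzyme, averaged 87.7 CPM in RAG2KO, 119.7 CPM in C57Bl6 and 169 CPM in naive organoids (log2 fold change -0.95, SE 0.11, adjusted p = 0.000606 for RAG2KO against naive). Of the 12 other genes of the eIF2 pathway, 3 were lower (25%) and 1 higher (8.33%) in that comparison, with a median of -0.12 against 0.02 over all genes. In C57Bl6 organoids 1 was lower and none higher (edgeR, with 2 at an unadjusted p under 0.05 and a median of -0.01), and in the lines 1 was lower and 1 higher, with a median of 0.08. Ppp1r15b, a constitutive partner of the eIF2alpha phosphatase, was the most significant fall (log2 fold change -1.05, SE 0.17, adjusted p = 0.00274), and Eif2ak2, the kinase PKR, was the one that was higher (log2 fold change 0.65, SE 0.17, adjusted p = 0.0186). Of 16 other carriers, 6 were not tested. Of the 10 tested, 1 was lower and 1 higher in RAG2KO against naive organoids (10% each). This is near the shares of all tested genes (13.3% lower and 16% higher), and the median was -0.02. Slc38a1 was the one that was lower (log2 fold change -1.36, SE 0.28, adjusted p = 0.00705). Slc6a14, a broad amino acid importer, was higher, at 19.1 CPM in RAG2KO, 7.79 CPM in C57Bl6 and 3.19 CPM in naive organoids (log2 fold change 2.60, SE 0.38, adjusted p = 0.00154 for RAG2KO against naive).

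Related stress pathways were counted in the same way. Of 14 chaperones and factors of the ATF6 and XBP1 arms, 6 were lower in RAG2KO organoids, 1 in C57Bl6 organoids and 7 in the SOX17OE lines against naive, with medians of -0.39, -0.21 and -0.65. Hspa5, the main chaperone of the endoplasmic reticulum, averaged 998 CPM in RAG2KO organoids and 2123 CPM in naive organoids (log2 fold change -1.09, SE 0.24, adjusted p = 0.00864). Of 8 NRF2 targets, which share the oxidative-stress context of Slc7a11, 1 was lower and 1 higher in RAG2KO organoids (12.5% each), which is near the shares of all tested genes (13.3% lower and 16% higher). The glutathione gene Gclm was the one that was lower (log2 fold change -1.29, SE 0.24, adjusted p = 0.00451) and Me1 the one that was higher (log2 fold change 1.19, SE 0.24, adjusted p = 0.00655).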

How the data were processed

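Poly(A) RNA libraries of 11 organoid samples were sequenced, from RNA isolated with an Ambion PureLink kit and made into libraries with NEBNext Ultra II Directional reagents, per the labels' protocols. The submitters' processing notes name Bowtie, RSEM and the mm9 build. The sources used here give no versions, no annotation and no strand setting for the counting. The deposited values are expected counts (estimated counts per gene, not normalized by the authors), with totals of 14109182 to 22154456 per library. Arriving as non-whole numbers, they were rounded.

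Genes were filtered with filterByExpr (13720 of 23224 kept), scaled by TMM and fitted with edgeR 4.0.16's robust quasi-likelihood model under R 4.3.3, on the 11 libraries in the 5 groups that the labels give. Single SOX17OE libraries were assumed to vary like the other groups. The common dispersion was 0.0641, with 6 residual degrees of freedom. Tests were two-sided, with Benjamini-Hochberg adjustment over all tested genes and a threshold of 0.05, and standard errors were derived from the log2 fold change and its F statistic (size of the change over the root of F). The 37 genes and the other lists were chosen with earlier results of these data known. Genes given library by library are those called in at least 1 comparison, and from each other list members were taken from the first 4 called by adjusted p, a few of which are left out. Alternatives were DESeq2 1.42.0 (size factors and Wald test), limma 3.58.1 voom, other scalings and filters, each library left out, a replicate block and the Rn45s share as a covariate. Scripts were tested on simulated data.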

Additional observations from a re-analysis of the deposited data

Results flagged for a closer look

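For 18 genes the 2 recipients differed from each other in the direct test of RAG2KO against C57Bl6 tumour-derived organoids (edgeR, 3 libraries each, adjusted over all tested genes), with RAG2KO lower in each. Among the carriers the log2 fold change was -1.82 for Slc7a5, -1.17 for Slc7a1 and -0.68 for Slc3a2. Among the enzymes it was -1.08 for Shmt2, -1.07 for Phgdh, -1.04 for Aldh18a1, -0.75 for Mthfd2, -0.67 for Psat1, -0.63 for Psph and -0.53 for Asns. Among the synthetases it was -0.95 for Wars, -0.82 for Gars, -0.64 for Iars, -0.57 for Mars and -0.48 for Aars. Among the regulators and effectors it was -1.10 for Trib3, -0.81 for Chac1 and -0.59 for Cebpb. The adjusted p ranged from 0.000302 for Slc7a5 to 0.0438 for Cebpb, and no RAG2KO library overlapped a C57Bl6 library except in Iars. The Rn45s share separates the same libraries without overlap, so the recipient and the ribosomal share cannot be told apart here.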

How the results depend on the processing

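Called genes kept their direction under every alternative, except Atf5 in the SOX17OE lines (0.29 without the constitutive line, -1.57 without the inducible one). With the Rn45s covariate 6 were called for RAG2KO against naive, 5 for C57Bl6 against naive, 0 for RAG2KO against C57Bl6 (median -0.64) and 10 for the SOX17OE lines, while every median stayed below 0. For C57Bl6 against naive the Wald test of DESeq2 called 18, voom 21 and the replicate block 7. The median for RAG2KO against naive was -0.82 with voom, and that for RAG2KO against C57Bl6 was -0.43 with upper quartile scaling, which moved the median of all genes to 0.10 in that comparison.

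Leaving out single libraries gave 26 to 31 calls for RAG2KO against naive, 3 to 14 for C57Bl6 against naive, 12 to 19 for RAG2KO against C57Bl6 and 1 to 25 for the SOX17OE lines. The medians ranged from -1.04 to -0.82, from -0.47 to -0.39, from -0.63 to -0.41 and from -1.14 to -0.34 in that order.

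Among members without a call, the sign changed under at least 1 alternative in 2 of 8 for RAG2KO against naive, 3 of 26 for C57Bl6 against naive, 11 of 19 for RAG2KO against C57Bl6 and 9 of 14 for the SOX17OE lines. For RAG2KO against naive these were Slc7a11 (-0.038) and Ddit4 (-0.455), both with the Rn45s covariate.

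For RAG2KO against C57Bl6, upper quartile scaling gave 0.11 for Slc7a11, 0.078 for Atf4, 0.019 for Cebpg, 0.086 for Pycr1 and 0.007 for Sars. The size factors and the Wald test of DESeq2 each gave 0.018 for Slc7a11 and 0.004 for Pycr1. Only the groups compared gave 0.027 for Slc7a11, 0.005 for Atf4 and 0.012 for Pycr1. The block gave 0.037 for Slc7a11 and 0.001 for Atf4, voom 0.046 for Atf4, and a 1 CPM filter 0.012 for Slc7a11. The covariate gave -0.51 for Ddit3, -0.663 for Ddit4, -0.02 for Vldlr, 0.085 for Pycr1 and -0.469 for Cth. With single libraries left out the ranges were -0.18 to 0.098 for Slc7a11, -0.097 to 0.028 for Atf4, -0.11 to 0.72 for Ddit3, -0.241 to 0.176 for Cebpg, -0.109 to 0.619 for Ddit4, -0.204 to 0.137 for Pycr1, -0.292 to 0.395 for Cth, -0.233 to 0.43 for Slc1a4 and -0.103 to 0.27 for Slc1a5.

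For C57Bl6 against naive the ranges with single libraries left out were -0.219 to 0.217 for Nupr1, -0.221 to 0.506 for Ddit4 and -0.454 to 0.004 for Wars. In the SOX17OE lines Psat1 was 0.11 without the constitutive line and -1.02 without the inducible one, and the same 2 fits gave 0.327 and -1.249 for Psph, 0.905 and -2.74 for Cth, 0.296 and -1.473 for Slc1a4, 0.047 and -0.711 for Sars, 1.088 and -0.759 for Pycr1, -0.713 and 0.42 for Nupr1, and -0.736 and 0.065 for Ddit4. Vldlr ranged from -0.243 to 0.043 there. The cause was not tested. Correlations between samples of different groups, with each group centred, were -0.23 to 0.29 for the same replicate number. For different numbers they were -0.36 to 0.22. With 3 samples a group these values cannot show whether the replicate numbers pair the samples. No block could be fitted for the single SOX17OE libraries.

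Depth was not limiting for most of the 37 genes, the scarcest of which, Sesn2, had 3.17 CPM in its lowest library. Precision is set by 3 libraries a group, and by 1 for each SOX17OE line.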

Other observations

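The median coefficient of variation of the 37 genes among replicates was 15.4% in RAG2KO, 16.7% in C57Bl6 and 9.17% in naive organoids, against 17.5%, 17% and 14.4% over all tested genes. In 25 of the 37 genes the group mean was lowest in RAG2KO, next in C57Bl6 and highest in naive organoids. This order was not counted over all tested genes. The inducible SOX17OE line had the lowest Sox17 level of the transplanted or transduced libraries. It exceeded every naive library in 8 genes, namely Atf5, Psat1, Psph, Pycr1, Cth, Slc1a4, Slc1a5 and Sars. The share of all tested genes in that position was not counted. Margins over the highest naive library were small for Sars (588.7 against 586.2 CPM) and Psat1 (507.1 against 504.5 CPM). Cth was 1.87 and Pycr1 2.13 times the naive mean in the inducible line, with no replicate of the line.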
